A study of Mus musculus with 4 samples.

Results

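E proteins are basic helix-loop-helix (bHLH) transcription factors that bind DNA as dimers, and Id proteins are HLH proteins without a basic region that pair with them and keep them off DNA. The genes examined here were the 3 E proteins *Tcf3*, *Tcf4* and *Tcf12*, the 3 inhibitors *Id1*, *Id2* and *Id3*, and *Lyl1* and *Tal1*, which encode bHLH factors of blood progenitors that act as dimers with E proteins. In lymphoid progenitors, *Tcf3* and *Tcf12* are known to drive the B cell programme upstream of *Ebf1*, *Tcf4* is known as a regulator of plasmacytoid dendritic cells, and *Id2* is known to be needed for natural killer (NK) and innate lymphoid cells. Every probe named for 1 of these 8 genes on the array was taken, which gave 11 of 39429 probes. *Tcf3*, *Tcf4* and *Tcf12* had 2 probes each and the other genes had 1. The accession of each probe was that of its gene in RefSeq.

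The RNA came from mouse hematopoietic progenitor cells (HPCs), namely lineage-negative (Lin-) cells of mid-gestation fetal livers, and all were *Ebf1*-/-, so the control cells also lacked EBF1. Cells were infected with a retrovirus carrying either the vector alone (EMPTY) or *Mir195*, and 2 samples of each were hybridised, 1 per array. Both groups received SCF, IL-7 and Flt3-ligand at 10 ng/mL each. The methods describe culture on OP9 stromal cells, for 7 days in their general protocol. The *Mir195* segment of the vector was amplified from a human cell line, and whether infected cells were purified before RNA extraction is not given in the sources used here. Nothing says that the replicates were separate cultures or litters, so the p-values measure the spread between these samples. The comparison addressed whether the E protein and Id genes differed with *Mir195* in cells without EBF1. A bulk array cannot tell fewer cells of a type from less RNA per cell.

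The miRNA that differed between the viruses is shown first, as its mature mouse sequence in RefSeq on the plus strand of GRCm38.p6 chr11:70235062-70235082, with bases 2 to 8, the seed that pairs with target mRNAs, in capitals. 
miR-195a-5p: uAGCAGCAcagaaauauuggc
The probes are 60 bases long. The first 30 bases are shown for the probes of *Tcf3* and *Tcf12*, which read the same gene at different places, and for *Id1*, *Id2* and *Tal1*, whose values differed most between the groups or did not overlap. 
*Tcf3* A_51_P394471: cagaaaagttccttcctctcggttaaccag
*Tcf3* A_55_P1975354: atgaggaaatcgcatcagtagccgacgccg
*Tcf12* A_52_P20048: atttacaatagcattttaagagcatagtag
*Tcf12* A_55_P2433438: gtggtgtacaaaatcagtctggaagtgttg
*Id1* A_55_P2052563: attgttttacaatagttctatgggggtgag
*Id2* A_52_P240542: tgagtgaaccttgtggactctttaattaga
*Tal1* A_55_P2106690: acagcctataggccaacactgcgggcgtgt
The longest run of bases shared by the 2 probes of a gene was 5, so the paired probes are separate readings of the gene.

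Values are the log2 signal of a probe minus the 75th percentile of its array, so that 0 is the signal of a probe at that percentile. The 75th percentile signal was 902 to 1127, and 23658 to 24671 probes were well above background on each array. All 4 arrays were on 1 slide, with the EMPTY samples at its first positions, so position and virus cannot be told apart. The median absolute difference over tested probes was 0.15 between the EMPTY arrays and 0.19 between the *Mir195* arrays, and 0.10 between EMPTY replicate 2 and *Mir195* replicate 1. *Ebf1* itself read 2.01 and 1.89 with EMPTY and 1.85 and 2.03 with *Mir195*, and its probe was not placed against the disrupted part of the gene.

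The cells were checked against lists of markers. The label places them around the pro-B stage. Of the 14 B lineage markers, 12 were tested, with a median log2 fold change of 0.06, and their summed signal was 31.4 to 37.3 times the 75th percentile. The 9 plasmacytoid dendritic markers summed to 453.4 to 512.9 times that percentile, and *Siglech*, *Bst2*, *Irf8*, *Ly6d*, *Cox6a2* and *Ccr9* each read between 5.65 and 6.95 on every array. The others were *Spib* at 3.86 to 3.97, *Pacsin1* at 2.67 to 2.94 and *Klk1* at -4.82 to -4.10. The sums are set mostly by a few bright probes and serve to follow a list between arrays, not to rank lists. The 13 NK and innate lymphoid markers summed to 30.8 and 26.8 with EMPTY and to 21.5 and 22.5 with *Mir195*. The 11 T lineage markers, of which 10 were tested, summed to 52.4 to 59.3 and had a median of -0.27. The OP9 stroma markers summed to 13.0, 13.9 and 12.2 on EMPTY replicates 1 and 2 and *Mir195* replicate 1, and to 22.7 on *Mir195* replicate 2, where 10 of the 11 tested were at their highest; *Postn*, *Dcn*, *Lum* and *Vcam1* were not well above background. Erythroid markers summed to 0.29 to 0.39, megakaryocyte markers to 0.36 to 0.47, mast and basophil markers to 3.7 to 4.5 and myeloid markers to 13.1 to 15.2. *Klf1*, *Alas2* and *Ahsp* of the erythroid list, and *Fcer1a*, *Ms4a2* and *Mcpt8* of the mast and basophil list, were not well above background.

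All 11 member probes were well above background on all 4 arrays, and none differed between the groups at an adjusted p of 0.05. The lowest adjusted p among them was 0.58 by limma, with Benjamini-Hochberg adjustment over 23731 tested probes. Across all tested probes 0 passed (0%), with 0.101 as the lowest adjusted p. Before adjustment, at a p of 0.05, *Id1* and *Tal1* were higher with *Mir195*, beside 6.25% of all tested probes, and no member probe was lower, beside 2.09%. On both *Mir195* arrays 3 member probes, of *Id1*, *Tal1* and *Tcf4*, lay above both EMPTY arrays, as did 23.4% of all tested probes. Another 2, of *Id2* and *Tcf12*, lay below both, as did 14.4%. The remaining 6 overlapped. The counts of 3 and 2 among 11 probes are near the shares of all tested probes and are no result about these genes.

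**Figure D1:**
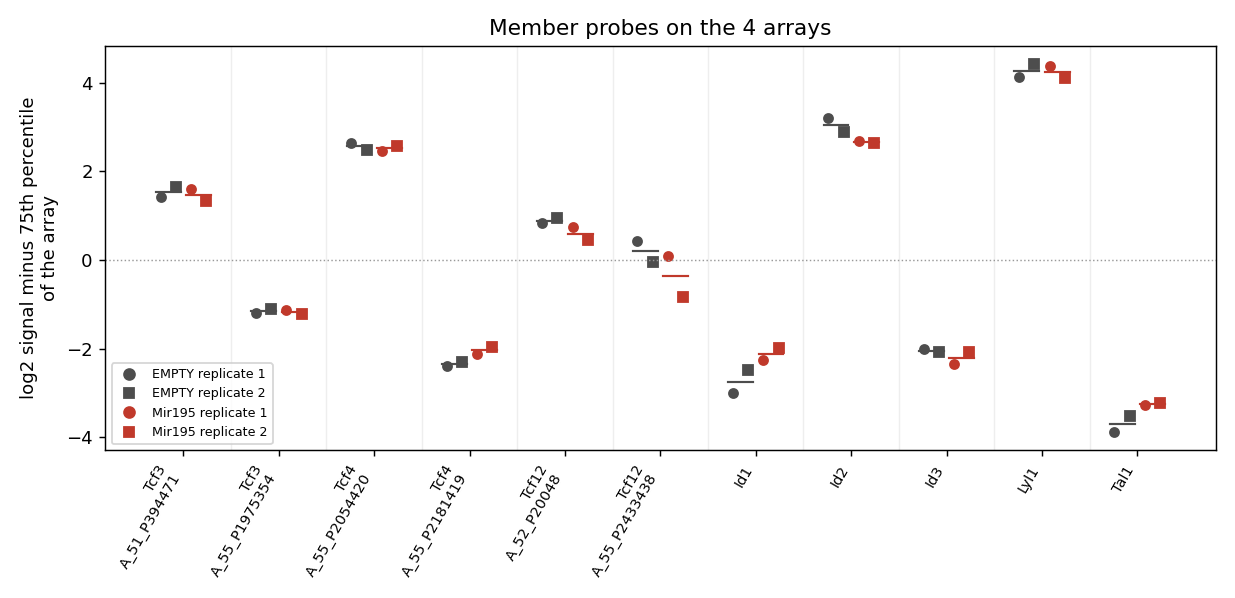
Log2 signal minus the 75th percentile of the array for the 11 member probes on the 4 arrays. Points are single arrays and short lines are the means of 2. *Id1*, *Tal1* and the dim *Tcf4* probe lie higher on both *Mir195* arrays, *Id2* and 1 *Tcf12* probe lie lower, and the others overlap.

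Among the E proteins, *Tcf3*, which encodes E12 and E47 by alternative splicing, was read by 2 probes that both overlapped. Probe A_51_P394471 read 1.41 and 1.64 with EMPTY and 1.61 and 1.34 with *Mir195*. Its highest value was on EMPTY replicate 2 and its lowest on *Mir195* replicate 2. The log2 fold change was -0.06 (SE 0.16, limma, adjusted p = 0.96), with a 95% interval from -0.48 to 0.37. Probe A_55_P1975354 read -1.20 and -1.10 against -1.14 and -1.21, a log2 fold change of -0.02 (SE 0.12) with an interval from -0.33 to 0.30. Leaving out EMPTY replicate 2 or *Mir195* replicate 2 turned both *Tcf3* values positive. With 2 arrays per group, differences of *Tcf3* inside these intervals remain compatible with the values. The intervals are not limits of detection.

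The 2 probes of *Tcf4* differed in sign. The bright probe A_55_P2054420 read 2.64 and 2.49 with EMPTY and 2.46 and 2.58 with *Mir195*. These values overlapped, with a log2 fold change of -0.05 (SE 0.13) and an interval from -0.38 to 0.29. The dim probe A_55_P2181419 read -2.38 and -2.30 against -2.12 and -1.96, so that both *Mir195* arrays were higher. Its log2 fold change was 0.30 (SE 0.13), with an interval from -0.03 to 0.63 and an adjusted p of 0.64 by limma. The gap between the bright and the dim probe, set against its mean with EMPTY, was 0.12 and -0.12 for that virus and -0.32 and -0.37 for *Mir195*. The intervals of the 2 probes overlapped, and the difference between them was not tested.

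*Tcf12*, which encodes HEB, was read lower by both probes, and both were lowest on *Mir195* replicate 2. Probe A_52_P20048 read 0.84 and 0.94 with EMPTY and 0.73 and 0.45 with *Mir195*, without overlap. Its log2 fold change was -0.30 (SE 0.15, limma, adjusted p = 0.72), and it was -0.16 without *Mir195* replicate 2. Probe A_55_P2433438 read 0.43 and -0.05 against 0.08 and -0.83. Here the groups overlapped and the spread was the widest of the 11 probes, with a log2 fold change of -0.56 (SE 0.35) and an interval from -1.48 to 0.36. Leaving out *Mir195* replicate 2 gave -0.11 and leaving out replicate 1 gave -1.02, where the limma adjusted p was 0.074.

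The 3 Id genes did not move together. *Id1* had the largest log2 fold change of the 11 probes with the 75th percentile scaling. The second *Tcf12* probe was larger in size under quantile normalization, at -0.58 against 0.56, under median scaling, at -0.66 against 0.53, and without *Mir195* replicate 1, at -1.02 against 0.77, and about equal under normexp. *Id1* read -3.01 and -2.47 with EMPTY and -2.25 and -1.98 with *Mir195*, so EMPTY replicate 1 was the farthest from the rest. The means differed 1.55-fold, a log2 fold change of 0.63 (SE 0.23) with an interval from 0.04 to 1.22 and an adjusted p of 0.58 by limma. Without EMPTY replicate 1 the log2 fold change was 0.36. The signal of the *Id1* spot was 5.23 to 7.48 times its local background.

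*Id2*, the family member known for innate lymphoid cells, was lower on both *Mir195* arrays. The spot was 124.1 to 234.9 times its local background. It read 3.20 and 2.88 with EMPTY and 2.69 and 2.63 with *Mir195*. The means differed 1.30-fold, with a log2 fold change of -0.38 (SE 0.16) and an interval from -0.79 to 0.02. The adjusted p was 0.63 by limma, and without EMPTY replicate 1 the log2 fold change was -0.22. The summed NK and innate lymphoid markers ran in the same order on the first 3 arrays, and their part in the *Id2* value was not tested. *Id3*, which like *Id2* is expressed in lymphocytes, read -2.0 and -2.08 against -2.34 and -2.07. These values overlapped, and the log2 fold change was -0.16 (SE 0.15), with an interval from -0.54 to 0.22.

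*Lyl1*, at 312.9 to 507.6 times its local background, had values of 4.12 and 4.41 for EMPTY and 4.38 and 4.10 for *Mir195*. The middle arrays, EMPTY replicate 2 and *Mir195* replicate 1, were the highest, and the groups overlapped almost fully. The log2 fold change was -0.02 (SE 0.17), with an interval from -0.48 to 0.43. *Tal1*, a regulator of stem cells and of the erythroid lineage, was measured close to background, at 3.50 to 3.88 times its local value. It read -3.88 and -3.51 against -3.27 and -3.23, so that both *Mir195* arrays were higher. The means differed 1.37-fold, with a log2 fold change of 0.45 (SE 0.17), an interval from 0.02 to 0.88 and an adjusted p of 0.58 by limma. Without EMPTY replicate 1 it was 0.27. *Gata1*, a partner of TAL1 in erythroid cells, read -3.43 on EMPTY replicate 1 and -2.71 to -2.66 on the other arrays. The summed erythroid markers, *Gata1* included, were lowest on *Mir195* replicate 2. On that array *Epor*, not well above background on all 4 arrays, read -7.93, against -3.35 to -3.25 on the others. Only 2 of the 5 tested erythroid markers were at their lowest there.

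**Figure D2:**
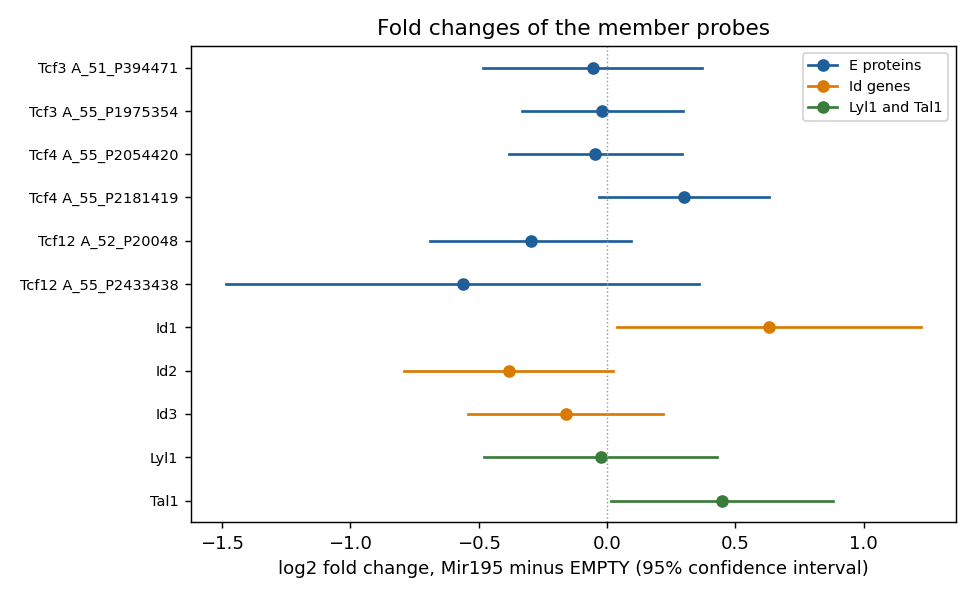
Log2 fold change of each member probe, *Mir195* minus EMPTY, with its 95% confidence interval from limma (2 arrays per group, not adjusted for the number of probes). Of the 11 intervals, those of *Id1* and *Tal1* leave out 0; none of the 11 passed the adjusted threshold.

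The 3 probes that were higher on both *Mir195* arrays were all dim. Between -4 and -2, the range that holds *Id1*, *Id3*, *Tal1* and the dim *Tcf4* probe, 4325 probes were tested, of which 31.6% were higher on both *Mir195* arrays and 12.6% lower, with a median log2 fold change of 0.08. Above 2, the range of *Id2*, *Lyl1* and the bright *Tcf4* probe, 13.2% of 5305 probes were higher on both and 14.5% lower, with a median of -0.03. Scaling by the median instead gave 14% higher and 25.6% lower over all tested probes, and normexp background correction gave 39.5% and 10.4%. *Id1*, *Tal1* and the dim *Tcf4* probe stayed higher on both *Mir195* arrays, and *Id2* and *Tcf12* A_52_P20048 lower, under normexp, quantile and median scaling, under the percentile over bright probes and in the authors' table. *Id3* joined the lower probes under quantile and median scaling and in the authors' table, and the bright *Tcf4* probe under median scaling. The part of dim signal in these differences was not tested.

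For 6 of the 11 probes, those of *Tcf3*, *Id1* and *Lyl1*, the bright *Tcf4* and *Tcf12* A_55_P2433438, EMPTY replicate 2 and *Mir195* replicate 1 were closer to each other than either pair of replicates. This held for 49.6% of all tested probes, so the count is near the general share and is no result about these genes.

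The balance of E proteins and Id genes was followed per array, with each gene read by its brightest probe and set against its own mean on the EMPTY arrays, since levels of different probes cannot be compared. The mean of *Tcf3*, *Tcf4* and *Tcf12* was -0.03 and 0.03 with EMPTY, against -0.06 and -0.21 with *Mir195*. The mean of *Id1*, *Id2* and *Id3* was -0.02 and 0.02 against -0.05 and 0.11. The difference of these means was -0.01, 0.01 and -0.01 on EMPTY replicates 1 and 2 and *Mir195* replicate 1, and -0.32 on *Mir195* replicate 2. The shift of -0.16 in the *Mir195* mean (SD 0.22, n = 2) therefore came from 1 array, and without it the shift was -0.01. On that array the OP9 stroma markers were also at their highest, and their part in the balance was not tested. No test was made of the balance, which is a score over chosen genes.

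Behind the flat mean of the Id genes lay opposite values of *Id1* and *Id2*. On the *Mir195* arrays *Id1* was 0.50 and 0.77 above its EMPTY mean, while *Id2* lay at -0.35 and -0.41. The sign of the balance depended on which Id gene was kept, with a shift of 0.14 without *Id1* and -0.37 without *Id2*. Taken in pairs, each of the 3 E proteins was lower relative to *Id1* on both *Mir195* arrays, with mean differences of -0.69 for *Tcf3*, -0.68 for *Tcf4* and -0.93 for *Tcf12*. Relative to *Id2*, *Tcf4* was higher on both *Mir195* arrays, by 0.34, while *Tcf3* and *Tcf12* overlapped. Relative to *Id3*, *Tcf4* was 0.036 and -0.036 with EMPTY and 0.19 and 0.04 with *Mir195*, so the groups nearly touched. The mean difference was 0.12, and *Tcf3* and *Tcf12* overlapped. The 3 pairs with *Id1* share its dim probe, so they restate its value and are not separate findings about the E proteins. Between -4 and -2, the range of that probe, 31.6% of tested probes were higher on both *Mir195* arrays. How often other pairs of probes do not overlap was not computed, so the pairs are a description only.

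**Figure D3:**
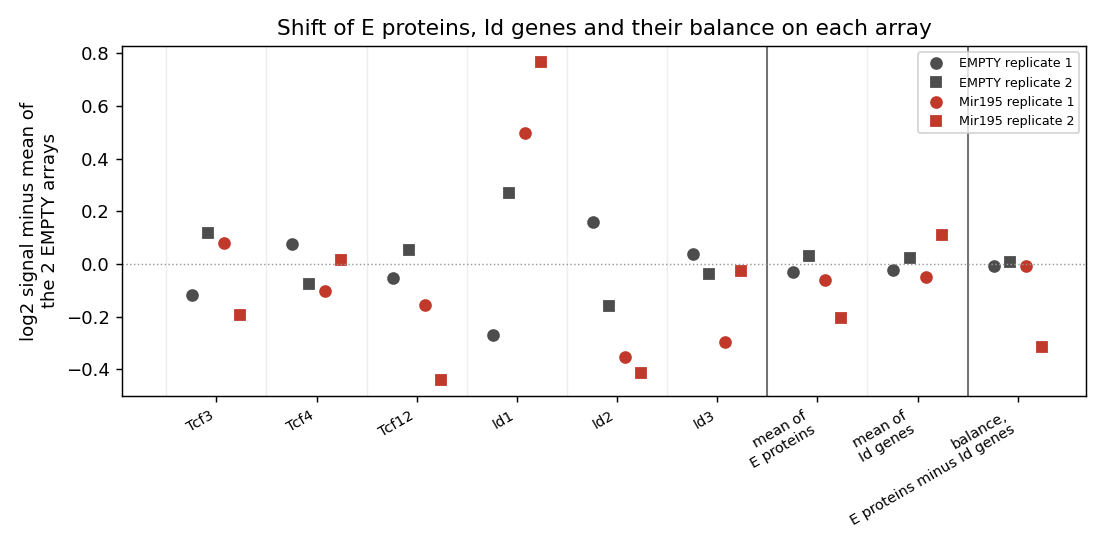
Shift of the brightest probe of each E protein and Id gene on each array, as log2 signal minus the mean of the 2 EMPTY arrays, followed by the means of the 3 E proteins and of the 3 Id genes and their difference. *Id1* and *Id2* lie on opposite sides of 0 on the *Mir195* arrays, and the difference departs from 0 only on *Mir195* replicate 2, at -0.32.

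Genes around these factors were described by lists, with each gene read by its brightest tested probe. No probe of any list passed the adjusted threshold, and the median log2 fold change over all tested probes was 0.01, or -0.08 when arrays were scaled by their median. Of all tested probes 12589 were higher and 11142 lower. Of 18 genes known to be induced by E proteins in lymphoid progenitors, 16 were tested. Of these, 10 were higher with *Mir195* and 6 lower, with a median of 0.06 that became -0.03 with median scaling. *Hes1*, a Notch target, differed by 0.79 (SE 0.48) and *Rag1*, of the antigen receptor recombinase, by 0.52 (SE 0.16). *Dntt*, the terminal transferase, differed by -0.55 (SE 0.21) and *Ptcra*, the pre-T cell receptor alpha chain, by -0.34 (SE 0.13). The value of *Hes1* came from *Mir195* replicate 2, at -3.53 against -5.20 to -4.82 on the others, while *Rag1* was higher on both *Mir195* arrays, at -1.87 and -1.54 against -2.20 and -2.24. Without *Mir195* replicate 1, *Hes1* (log2 fold change 1.48, limma adjusted p = 0.021) and a dimmer probe of *Ccr9* (1.12, limma adjusted p = 0.037) passed the threshold, as did *Nhlh1* of the bHLH list (0.90, limma adjusted p = 0.045). In that setting 904 of all tested probes (3.81%) passed, and the *Mir195* group was replicate 2 alone, the array with the highest stroma markers, whose part was not tested.

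Of 12 innate lymphoid genes that depend on *Id2* or go with it, all were tested, 10 were lower and 2 higher, with a median of -0.30. Most of these genes also stand among the NK and innate lymphoid markers above, so that their values are not separate from those sums. In 6 of them both *Mir195* arrays were lower, beside 14.4% of all tested probes, or 25.6% with median scaling. *Il1rl1*, the IL-33 receptor, differed by -0.75 (SE 0.25) and *Eomes*, a T-box factor of NK cells, by -0.72 (SE 0.32). The largest positive values were 0.04 (SE 0.12) for *Nfil3* and 0.01 (SE 0.54) for *Rora*, both factors of innate lymphoid development. In 10 of the 12 EMPTY replicate 1 was the highest array, as it was for *Id2*, against 17.7% of all tested probes. The median was -0.19 without that array and -0.67 without EMPTY replicate 2.

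Of 14 partners and cofactors of TAL1, LYL1 and E proteins, 11 were tested, 8 were higher and 3 lower, with a median of 0.07 that became -0.03 with median scaling. *Lmo1*, a LIM-only adaptor that bridges TAL1 or LYL1 to other factors, read -0.62 and -0.38 with EMPTY and 0.30 and 0.18 with *Mir195*. It had the largest log2 fold change of the list at 0.74 (SE 0.14, limma, adjusted p = 0.53). *Gata1* differed by 0.38 (SE 0.26), *Ep300*, a histone acetyltransferase recruited by E proteins, by -0.16 (SE 0.12) and *Ssbp2* by -0.04 (SE 0.11). *Ldb1*, *Gata2* and *Runx1t1* were not well above background.

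Of 13 genes of BMP and SMAD signalling, a pathway known to induce Id genes, 9 were tested, 7 were higher and 2 lower, with a median of 0.13. The receptors *Bmpr1a* and *Bmpr1b*, and *Bmp6* and *Smad9*, were not well above background. *Smad1*, which carries the BMP signal to the nucleus, differed by 0.45 (SE 0.37) and *Bmp2*, a ligand, by 0.32 (SE 0.52). *Bmpr2*, a receptor, differed by -0.16 (SE 0.14) and *Smad7*, an inhibitor, by -0.01 (SE 0.13). Of the 9 genes, 6 were at their highest on *Mir195* replicate 2, the array with the highest *Id1* and stroma values, against 34.3% of all tested probes. The median was 0.01 without that array and 0.44 without *Mir195* replicate 1. Of 22 other bHLH and HLH genes, *Lyl1* and *Tal1* included, only 5 were tested and 17, among them *Id4*, were not well above background. *Nhlh1* differed by 0.43 (SE 0.33), and the median was 0.10. It was 0.01 with median scaling, -0.05 without EMPTY replicate 1, 0.26 without EMPTY replicate 2 and 0.27 over probes that all 4 arrays had well above background.

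**Figure D4:**
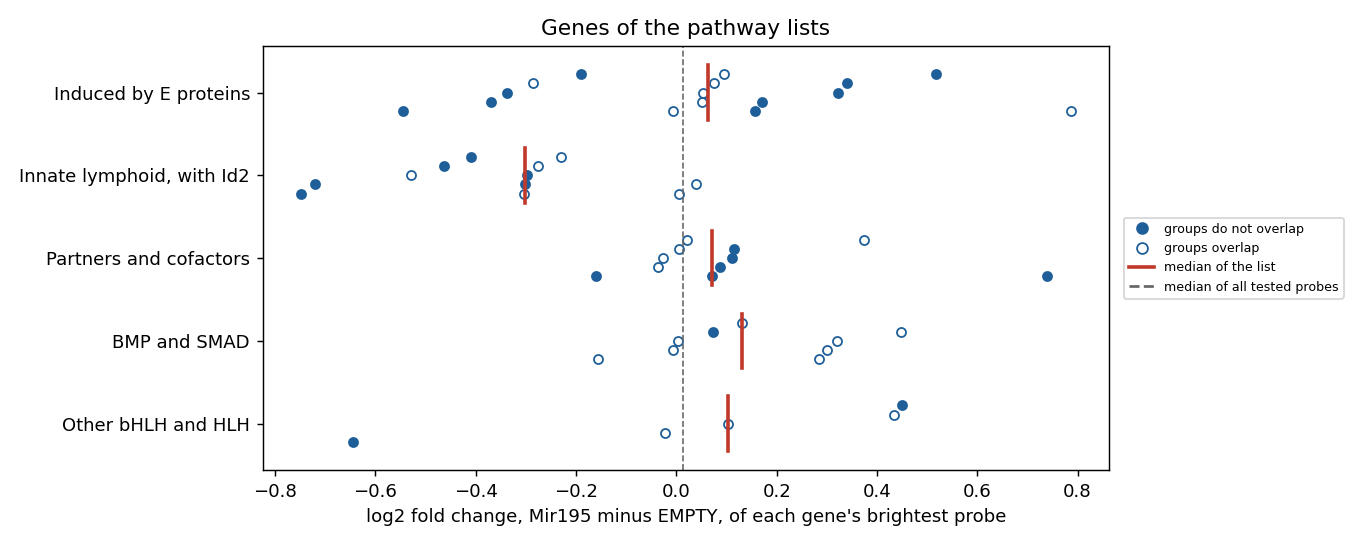
Log2 fold change, *Mir195* minus EMPTY, of the brightest probe of each tested gene in the 5 pathway lists. Filled points are genes whose groups do not overlap, the red line is the median of a list and the dashed line that of all tested probes, 0.01. The innate lymphoid list has its median at -0.30 and the other 4 between 0.06 and 0.13, of which the induced genes and the partners turn to -0.03 with median scaling and the bHLH genes to -0.05 without EMPTY replicate 1.

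The genes whose 4 values, centred on their mean, lay closest to those of *Id1*, the member of largest change with the 75th percentile scaling, were *Cibar2*, *Ushbp1* and *Zdhhc22*, at Euclidean distances of 0.050, 0.073 and 0.079 on the log2 scale. They were the nearest of 22576 probes over 4 arrays. As 124 probes lay within 0.2, and *Cibar2*, the nearest, read only -6.0 to -4.95, this likeness is a description of few and dim values.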

How the data were processed

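Agilent 4x44K v2 mouse arrays with Cy3-labelled RNA (100 ng) were analysed, 2 of EMPTY and 2 of *Mir195*, grouped by title. The authors deposited the spot intensity of each array from Agilent Feature Extraction 11.5.1.1, with background already subtracted, and a table of log2 values scaled to the 75th percentile, per the methods. The 2 sources correlated with r = 0.998 on each array.

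The log2 of the processed intensity was taken, outlier spots were left out (21 to 65 per array, none saturated), spots of a probe were averaged and the 75th percentile was subtracted. A probe was kept if both arrays of either virus had it well above background (23801 probes), and 70 of these lacking a good spot on some array were dropped. The remaining 23731 were tested by limma 3.58.1 (lmFit, eBayes) under R 4.3.3, with files read by its package data.table (version 1.17.8), two-sided, with Benjamini-Hochberg adjustment at 0.05. An exact permutation test of 2 against 2 cannot go below p = 0.333 and was not used. The fit was also run on simulated data with independent noise for each value, which says nothing about differences shared by many probes of an array. The number of arrays limits the precision.

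The members, the lists, the comparisons and the alternatives were chosen with earlier results of these data known. All member probes were named. Of each pathway list the 2 largest rises and 2 largest falls among probes that all 4 arrays had well above background were named, since none was called, with the 3 genes most like the member of largest change, and *Ebf1*. The alternatives were normexp with an offset of 50, quantile and median scaling, the percentile over bright probes, the authors' table, 2 filters on dim probes, trended and robust eBayes, a replicate block, leaving out each array and the methods' t-test. The values of some genes under these rules are not reported here. Markers and *Nhlh1*, *Ccr9* and *Id4* were named after their values were seen.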

Additional observations from a re-analysis of the deposited data

How the results depend on the processing

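None of the 11 member probes was called under any alternative, and 88 of 99 log2 fold changes kept their sign under the 9 alternatives that could move them, while the other 6 leave the fold changes as they are. The exceptions were values near 0. For the second *Tcf3* probe the value became 0.003 with the percentile over bright probes and 0.006 in the authors' table, and for *Lyl1* 0.02 with quantile normalization. Leaving out 1 array gave -0.192 to 0.081 and -0.069 to 0.031 for the *Tcf3* probes, -0.12 to 0.03 for the bright *Tcf4* probe and -0.17 to 0.12 for *Lyl1*. Over all tested probes, 0 calls became 3 with median scaling, 5 with the replicate block and 0 to 904 with 1 array left out, 904 being without *Mir195* replicate 1 and 3 without *Mir195* replicate 2. The lists had 0 to 3 calls with 1 array left out. The cause was not tested. Where a group had 1 array, it was assumed to vary like the other group. The balance shift was 0.139 without *Id1* and -0.368 without *Id2*, and -0.32 to -0.01 with 1 array left out.

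Deviations of same-numbered samples correlated at -0.10, and those of samples matched crosswise at 0.10. With so few arrays these values mirror each other by construction, so they cannot tell whether same-numbered samples were paired. The replicate block called 5 of all tested probes and no member probe. Pairing the numbers crosswise, chosen after seeing the data, gave 0 calls. The methods' t-test on same-numbered log2 ratios gave 1134 probes at an unadjusted p of 0.05, none of them a member, and 0 after Benjamini-Hochberg adjustment. *Id1*, *Id3*, *Tal1* and 1 *Tcf4* probe were within 10 times local background. Their SEs were 0.13 to 0.23, against 0.12 to 0.35 for the other member probes. The part of low signal in the precision was not tested.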
